A study of Mus musculus with 18 samples.

Results

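Whole-tissue RNA of the mouse choroid was compared with that of the retina, using the input libraries that were set aside before any pull-down. The comparison holds 6 of the 18 libraries of the series, 3 choroid inputs and 3 retina inputs, and 10704 of the 14068 genes listed in at least 1 of its tables. These genes are the ones listed for both tissues, and 10703 of them were tested. Counts of the remaining 12 libraries, from brain and from the anti-GFP pull-down of each tissue, did not enter this comparison. The pull-down did shape which genes are listed, since 100 choroid and 327 retina genes were listed through it alone. All 6 libraries came from animals labelled Tie2-cre+ and NuTRAP+, and no group without these alleles was analysed here. The table columns add the letters WT and the table names NT, and the labels explain neither. The Tie2 promoter drives Cre in endothelial cells and in blood-lineage cells, and NuTRAP then tags their ribosomes and nuclei, but an input library carries RNA of every cell in the lysate. For each sample the tissue of 2 eyes was combined. The choroid was scraped off together with the retinal pigment epithelium (RPE), so the choroid input is an RPE-choroid lysate. Lysates were spun at 12000 g for 10 min and 150 µl of the supernatant became the input. The age and the sex of the animals are not stated.

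The choroid is the vascular coat behind the retina. Its fenestrated capillaries, the choriocapillaris, feed the RPE and the photoreceptors through a layered extracellular matrix, Bruch's membrane, and its stroma holds melanocytes, fibroblasts, macrophages and mast cells. The RPE recycles the chromophore of the visual pigments, engulfs shed photoreceptor tips and moves ions, water, glucose and lactate between blood and retina. The retina holds rods, cones, inner neurons and Muller glia, with its own barrier-forming vessels.

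Levels are given as CPM, counts scaled to the same total in each library over the genes listed in both tables, in the order of samples 421, 953 and 960 unless stated, and means carry the SD of 3 samples. For genes listed for 1 tissue only, CPM refers to the total of that tissue's table. A level is compared between tissues for 1 gene at a time, since CPM is not corrected for gene length. Differences are log2 fold changes ± SE, choroid minus retina, from edgeR's quasi-likelihood test, and a gene is called at a Benjamini-Hochberg adjusted p under 0.05. A fold between the tissues is the fitted log2 fold change written as a ratio. The p-values rest on a spread estimated per gene from the samples of both tissues together (3 per tissue) and moderated across genes. They do not measure each tissue's own spread. The choroid inputs held 8807306 to 14484068 counts and the retina inputs 15243098 to 21521130, and replicate choroid inputs differed more from each other (Pearson r of log2 CPM across genes 0.9294 to 0.9715) than replicate retina inputs (0.9928 to 0.9939). In whole tissue, fewer cells of a type and less RNA per cell cannot be told apart.

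Most genes differed between the tissues. Of the 10703 genes, 7966 (74.4%) were called, 4013 (37.5%) higher and 3953 (36.9%) lower in choroid, and the median log2 fold change over all genes was -0.004. The split was less even at large differences. At least 8-fold higher in choroid were 656 genes (6.13%), against 260 (2.43%) at least 8-fold lower. At least 32-fold, the counts were 185 (1.73%) and 6 (0.0561%). With at least 50 counts required in all 6 inputs, the 8-fold counts were 423 higher and 253 lower. A gene under 50 counts in any retina input, such as Apod below, could be tested only because the retina pull-down listed it. The 8-fold and 32-fold counts over all tested genes thus depend in part on the listing rule. The 3 samples of one tissue all lay on one side of the 3 of the other for 8496 genes (79.4%). Counts called per list below are to be read beside these shares, and so are statements that samples did not overlap. Beyond the shared genes, 1014 were listed for choroid only and 1665 for retina only, and these could not be tested. The listing minimum is a fixed 50 counts, and the retina inputs held more counts than the choroid inputs. At the same low CPM a gene could thus be listed for retina and not for choroid. For genes near that minimum, listing for retina only does not show which tissue was higher.

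Among genes listed for both tissues, the one furthest above retina was Apod (chr16:31296192-31314596), which encodes the lipid carrier apolipoprotein D. Its choroid inputs held 829, 474 and 538 CPM and its retina inputs 0.271, 0.911 and 0.995 CPM, a log2 fold change of 9.66 ± 0.44 (edgeR adjusted p = 1.62e-06). Retina 421 held 4 counts of it, so the size of this difference is uncertain. Among the next were Lyz2 (a macrophage lysozyme), Dct (a melanin enzyme), Emp1 (an epithelial membrane protein, 8.62 ± 0.53), Bgn (the matrix proteoglycan biglycan), Cd74 (the invariant chain of MHC class II), Lrat and Rpe65 (both of the retinoid cycle) and Mgp (matrix Gla protein, 7.63 ± 0.29). RPE, pigment, matrix and immune genes were thus all among the highest. Among the lowest genes with a known name stood Crb1, a polarity protein of the outer retina. Its choroid inputs held 7.35, 9.77 and 11.1 CPM and its retina inputs 324, 337 and 317 CPM, a log2 fold change of -5.11 ± 0.17 (edgeR adjusted p = 7.53e-07). Bsn, encoding a presynaptic scaffold, and the calcium channel gene Cacna1h (-4.93 ± 0.23) were close to it.

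The tissue labels were checked on 4 markers. Rpe65, the isomerase of the retinoid cycle, stood at 1593, 2510.1 and 2008 CPM in choroid and 7.64, 7.38 and 11.6 CPM in retina. Cdh5, the endothelial junction protein VE-cadherin, stood at 75.7, 33.7 and 44.1 CPM in choroid and 1.49, 1.63 and 1.44 CPM in retina. Snap25, a neuronal vesicle fusion protein, stood at 24.6, 116 and 86.9 CPM in choroid and 1514, 1500.2 and 1526 CPM in retina. For each of these genes every choroid sample lay apart from every retina sample, with log2 fold changes of 7.84 ± 0.32, 5.07 ± 0.35 and -4.32 ± 0.54 (edgeR adjusted p = 1.19e-06, 9.74e-06 and 0.000203). Col1a2, a chain of type I collagen, was listed for choroid only, at 409.6, 301 and 292 CPM. The 3 tested markers thus lay on the side their labels give in all 6 libraries.

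**Figure D1:**
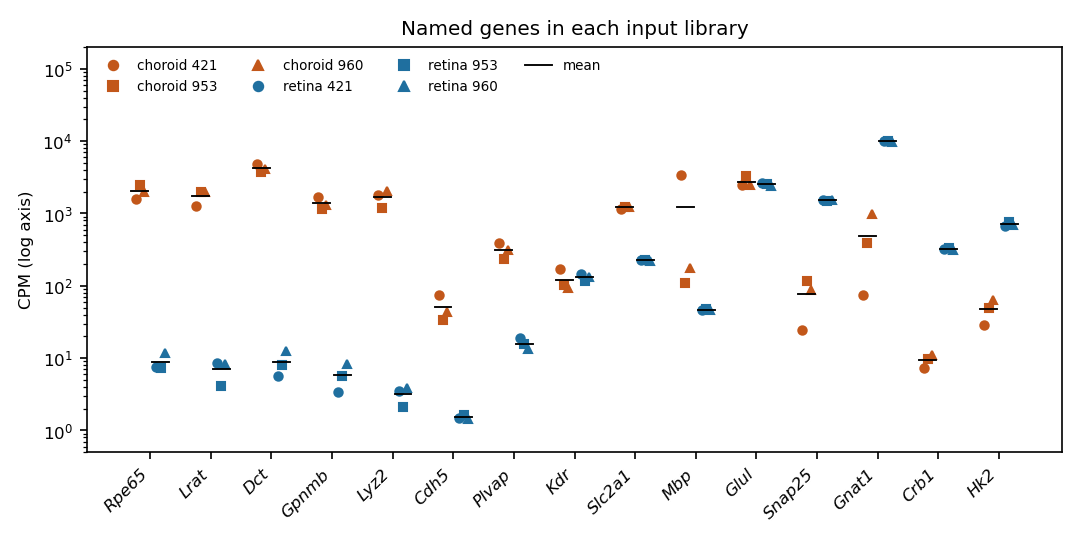
CPM of 15 genes on a log axis, 1 point per input library (choroid orange, retina blue, symbols for samples 421, 953 and 960) and a bar at each mean. Rpe65 and Dct lie near 2037 and 4249 CPM in choroid against 8.88 and 8.76 in retina, Gnat1 shows the reverse with widely spread choroid samples, and Kdr and Glul overlap between the tissues.

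RPE genes were higher in choroid, by a wide margin for most. Of 35 genes listed for the retinoid cycle and other RPE functions, 28 were tested, 5 were listed for choroid only and 2 were in no table. Of the 28, 27 were called higher in choroid, beside 37.5% of all genes, and 1 lower. Their median log2 fold change was 4.75 and 22 were higher by at least 8-fold. Summed over the 28, the choroid samples held 34116, 47864 and 44494 CPM and the retina samples 1550.1, 1468 and 1622 CPM. Sample 421 had the lowest sum among the choroid inputs, and none came near the retina range.

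Retinoid handling genes were among the furthest apart. Lrat, which esterifies retinol for storage, stood at 1276, 1970.1 and 2008 CPM in choroid and 8.45, 4.17 and 8.29 CPM in retina. That is a log2 fold change of 7.98 ± 0.40, or a 252-fold ratio (edgeR adjusted p = 2.20e-06). Stra6, the receptor that takes up retinol from its plasma carrier, and Rdh10, a retinol dehydrogenase, differed by 6.46 ± 0.23 and 5.12 ± 0.24. In these 3 genes the lowest choroid sample was 421. Of the 15 tested genes of retinoic acid and retinoid transport, 10 were called higher and 3 lower. The lower ones were Rbp3 (-4.64), the retinoid carrier between photoreceptors and RPE, Rdh12 (-4.24), a photoreceptor retinol dehydrogenase, and the receptor gene Rara (-0.66), all named after their values were seen. Storage and uptake genes of the pathway were thus high in choroid, and photoreceptor members in retina.

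Other RPE genes followed the same direction with different sizes. Enpp2, which encodes the secreted lipid enzyme autotaxin, stood at 2278, 2804 and 2772 CPM in choroid and 65.6, 61.3 and 71.4 CPM in retina, a 39.6-fold ratio (5.31 ± 0.18, edgeR adjusted p = 7.85e-07). Mfrp and C1qtnf5 stood 137-fold and 136-fold higher. Both are listed at the same position (chr9:44101770-44109187), so how reads were divided between them is uncertain. Mertk, the receptor with which the RPE engulfs photoreceptor tips, was 10.1-fold higher (3.33 ± 0.11). The choroid and retina samples did not overlap for any of these genes. Among the lineage factors, Mitf, which directs pigment cell genes, differed by 4.33 ± 0.19, Lhx2 by 1.56 ± 0.16, and Otx2, which is also active in photoreceptors and bipolar cells, by 1.14 ± 0.20. The exception was Frzb, a secreted Wnt antagonist, at 10.3, 9.18 and 9.28 CPM in choroid and 37.5, 31.1 and 35.5 CPM in retina (-1.85 ± 0.13, edgeR adjusted p = 1.13e-05). Otx2 and Frzb were chosen after their values were seen.

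Promoter sequence is shown for 1 RPE gene, 1 pigment gene and 1 photoreceptor gene whose levels separate the tissues. Capitals mark the core letters bound by the homeobox factors CRX and OTX2 (TAATCC, or GGATTA on the other strand) and the M-box core bound by MITF (CATGTG, or CACATG on the other strand). Each run is the 250 bases before the gene's start, 5′ to 3′ on the gene's own strand, from RefSeq on GRCm38.p6. Rpe65 lies at chr3:159598931-159599180, plus strand. Dct lies at chr14:118052247-118052496, minus strand. Crx, the photoreceptor homeobox gene itself, lies at chr7:15879956-15880205, minus strand, and was chosen after its values were seen.
Rpe65: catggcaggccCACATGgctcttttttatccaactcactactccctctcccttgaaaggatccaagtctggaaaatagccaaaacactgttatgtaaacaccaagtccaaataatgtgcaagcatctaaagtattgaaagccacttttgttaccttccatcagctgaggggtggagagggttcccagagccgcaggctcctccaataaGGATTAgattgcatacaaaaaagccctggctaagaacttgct
Dct: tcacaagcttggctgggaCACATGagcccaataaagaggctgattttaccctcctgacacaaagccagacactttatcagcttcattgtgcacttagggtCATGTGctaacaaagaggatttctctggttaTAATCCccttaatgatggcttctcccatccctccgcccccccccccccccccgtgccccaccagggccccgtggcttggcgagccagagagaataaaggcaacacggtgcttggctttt
Crx: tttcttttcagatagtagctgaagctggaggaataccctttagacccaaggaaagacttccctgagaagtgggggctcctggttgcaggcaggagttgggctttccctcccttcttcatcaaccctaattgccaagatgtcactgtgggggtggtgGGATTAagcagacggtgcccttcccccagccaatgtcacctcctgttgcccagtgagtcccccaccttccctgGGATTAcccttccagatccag

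The Rpe65 run holds GGATTA at 42 bases and CACATG at 239 bases before the start. In Dct, TAATCC stands at 119 bases, and the M-box core at 150 and at 232 bases. The Crx run holds GGATTA at 21 and at 94 bases. The runs shown were taken from a larger set, in which the RPE genes Lrat and Slc16a8 held no match. The rod genes Pde6b and Nr2e3 and the pigment gene Slc24a5 held the M-box core only. The pigment gene Ednrb held the CRX and OTX2 core only. The CRX and OTX2 core was found in 10 of 27 promoters of rod genes (37.0%), 6 of 39 of RPE genes (15.4%) and 3 of 21 of pigment genes (14.3%), beside 6.25% of all 32851 promoters. The M-box core was found in 5 (18.5%), 4 (10.3%) and 8 (38.1%), beside 12.3% of all. The related letters CACGTG of the E-box, which read the same on both strands and are counted apart from the M-box core, were found in 0, 2 (5.13%) and 6 (28.6%), beside 6.02% of all. Promoters were matched by gene ID for 25 of 37 rod genes, 28 of 33 RPE genes and 17 of 23 pigment genes, and some genes have more than 1. A match describes the letters in this window only.

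Pigment genes were high in choroid, but many could not be tested. Of 23 melanosome and pigment genes, 11 were tested, 11 were listed for choroid only and 1 for retina only. Of the 11 tested, 8 were called higher and 1 lower, with a median of 1.39. Dct, which encodes dopachrome tautomerase, stood at 4812, 3782 and 4152 CPM in choroid and 5.68, 7.96 and 12.7 CPM in retina, a 483-fold ratio (8.92 ± 0.40, edgeR adjusted p = 1.57e-06). No sample of either tissue came near the other tissue. Slc24a5, a melanosomal ion exchanger (4.99 ± 0.13), and Rab27a, which tethers melanosomes for transport (4.66 ± 0.18), were also called. The endothelin receptor gene Ednrb, active in melanocytes, stood at 354, 148 and 133 CPM in choroid against 5.41, 8.20 and 9.45 CPM (4.77 ± 0.46, or 4.15 without choroid 421), and its ligand gene Edn3 at 269.5, 138 and 166 CPM against 1.08, 0.719 and 1.22 CPM (7.58 ± 0.36). Sample 421 was the highest choroid input for both. Kit, the stem cell factor receptor of melanocytes and mast cells, was 5.40-fold higher (2.43 ± 0.15).

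The pigment genes listed for choroid only were the core of melanin synthesis and melanosome structure: Tyr, Tyrp1, Pmel, Mlana, Oca2, Slc45a2, Gpr143, Rab38, Rab32, Mlph and Sox10. Summed, they took 4386, 2753 and 2788 CPM, highest in sample 421. Tyrp1 alone stood at 1507, 857 and 785 and Pmel, the fibril protein, at 1259.9, 722 and 829. By mean CPM, without correction for gene length, both were among the 3 highest genes listed for choroid only. Myo5a, the motor that carries melanosomes and also synaptic cargo, was the 1 tested member called lower, at 259, 178 and 149 CPM in choroid and 292, 288 and 311 CPM in retina (-0.61 ± 0.20, edgeR adjusted p = 0.0246). That call was lost when any 1 of retina 421, retina 953, retina 960 or choroid 953 was left out (edgeR adjusted p = 0.0582, 0.0546, 0.0734 and 0.0834). Myo5a was chosen after its values were seen.

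The epithelium's transport genes differed strongly by isoform. Of 15 tested ion channels and transporters of the RPE, 11 were called higher and 3 lower, beside 37.5% and 36.9% of all genes. Their median was 2.60. Clic6, a chloride channel family member, stood at 771, 998 and 919 CPM in choroid and 28.3, 30.7 and 28.6 CPM in retina (4.94 ± 0.16, edgeR adjusted p = 7.24e-07). The bicarbonate transporters Slc4a5 and Slc4a2 differed by 4.61 ± 0.16 and 3.48 ± 0.11, and the calcium channel gene Trpv4 by 4.13 ± 0.14. Slc4a7 (-3.91), Slc4a3 (-1.35) and the carbonic anhydrase gene Car2 (-2.47), named after their values were seen, were lower in choroid. Another carbonic anhydrase gene, Car14, was 12.2-fold higher in choroid, at 685, 932 and 919 CPM against 71.1, 68.2 and 67.7 CPM (3.61 ± 0.16). Within the same families, some members were thus high on the choroid side and some on the retina side. Kcnj13, the inward rectifier of the RPE, was listed for choroid only at 233, 255 and 279.6 CPM.

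**Figure D2:**
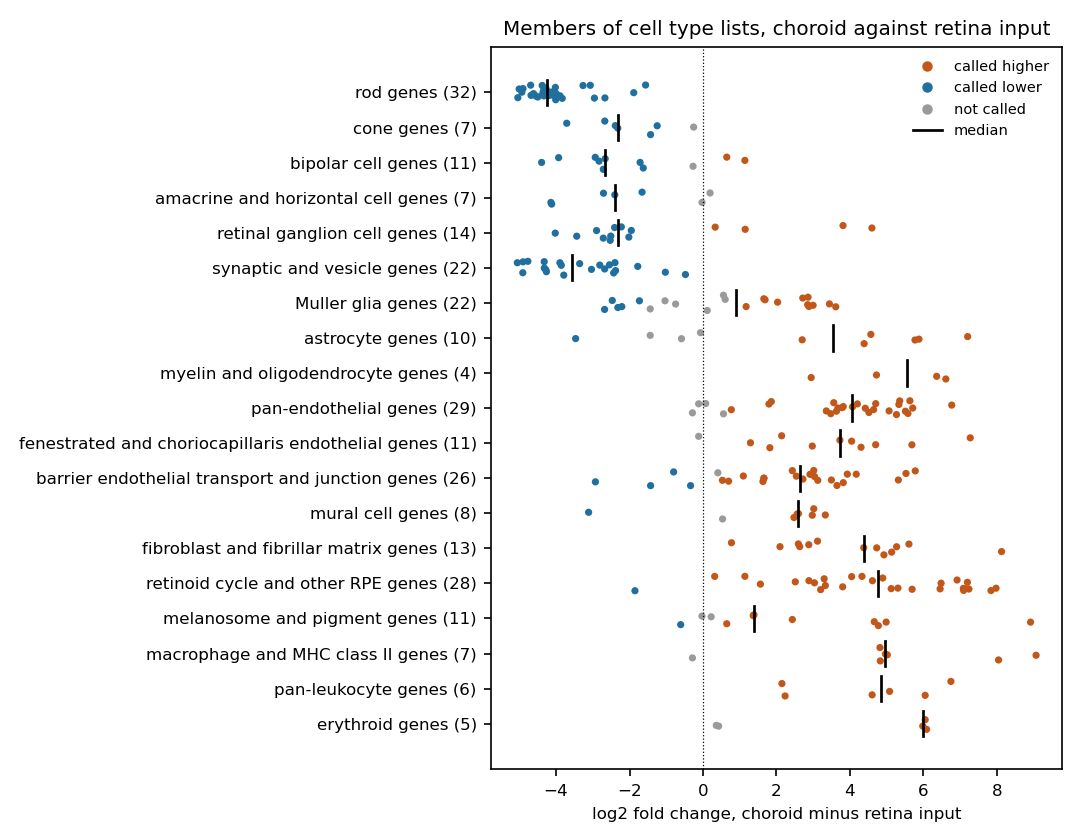
Log2 fold changes, choroid minus retina input, of the tested members of 19 cell type lists, 1 point per gene (orange called higher, blue called lower, grey not called), with a bar at each list's median and the number tested in brackets. The rod and synaptic lists lie to the left with medians of -4.24 and -3.57, the RPE list to the right at 4.75, and the Muller glia list spans both sides at 0.89.

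Stromal matrix genes formed a second group on the choroid side. All 13 tested fibroblast and fibrillar matrix genes were called higher, with a median of 4.38, and 16 more of the 30 on the list were listed for choroid only. Bgn, the proteoglycan biglycan, stood at 631, 354 and 576 CPM in choroid and 1.08, 2.06 and 2.32 CPM in retina (8.13 ± 0.37, edgeR adjusted p = 1.63e-06). Fmod, the collagen-binding fibromodulin, differed by 5.27 ± 0.28, the actin-severing gelsolin gene Gsn by 5.61 ± 0.23, and the collagen chaperone gene Serpinh1 by 4.73 ± 0.18. Dcn, the proteoglycan decorin, was listed for choroid only at 1236, 934 and 934 CPM, and Col1a1 and Col3a1 at 258, 161 and 170.3 and 168, 119.5 and 102. The 16 such genes summed to 2912, 2276 and 2097 CPM. Sample 421 was the highest choroid input in this sum and in the sum over the tested members (4277, 3369 and 2990.2 CPM, against 285, 298 and 324 in retina).

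Basement membrane and elastic fibre genes, the components of Bruch's membrane and vessel walls, were also higher. Of 16 tested basement membrane genes 15 were called higher and none lower, with a median of 2.31. Nid1, the linker protein nidogen, stood at 86.6, 77.6 and 53.99 CPM in choroid and 0.406, 0.863 and 0.884 CPM in retina (6.61 ± 0.30, edgeR adjusted p = 1.70e-06). The laminin chain gene Lamb2 and the perlecan gene Hspg2 differed by 4.08 ± 0.16 and 4.17 ± 0.27. Of 15 tested elastic fibre genes 14 were called higher, with a median of 3.64. Timp3, the metalloproteinase inhibitor deposited in Bruch's membrane, stood at 5628, 6221 and 4939 CPM against 104, 100.0 and 121 CPM, a 51.7-fold ratio (5.69 ± 0.21). The elastic fibre assembly genes Fbln5 and Efemp2 were 37.7-fold and 12.5-fold higher. Vtn, the adhesive plasma protein vitronectin, went the other way, at 60.9, 124 and 142 CPM in choroid and 969, 962 and 899 CPM in retina (-3.11 ± 0.31, edgeR adjusted p = 5.94e-05), with 421 the lowest choroid sample.

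Complement genes showed inhibitors and early components together. Of 24 listed, 9 were tested, 7 of them called higher and none lower, and 8 more were listed for choroid only. Serping1, the C1 inhibitor, stood at 235, 173 and 168 CPM in choroid and 7.30, 5.08 and 6.63 CPM in retina, a 30.4-fold ratio (4.93 ± 0.20, edgeR adjusted p = 1.22e-06). C1qa, a chain of the initiating C1q complex, differed by 5.02 ± 0.31. C3, the central component, was listed for choroid only, with 147, 40.2 and 33.6 CPM. The 3 choroid inputs were far apart for C3, where 421 stood highest.

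Endothelial genes were higher in choroid input, with the main VEGF receptors as exceptions. Of 29 tested pan-endothelial genes 25 were called higher and none lower, with a median of 4.07. Eng, the TGF-beta co-receptor endoglin, stood at 254, 123 and 192 CPM in choroid and 3.52, 2.83 and 4.53 CPM in retina (5.71 ± 0.33, edgeR adjusted p = 4.13e-06). The surface sialomucin gene Cd34 (5.58 ± 0.22), the calcitonin receptor partner gene Ramp2 (5.51 ± 0.24) and the secreted vessel factor gene Egfl7 (4.42 ± 0.22) were also called. Tie1 and Tek, which encode the receptors TIE1 and TIE2, stood at 113, 58.3 and 72.03 and 59.2, 38.1 and 33.4 CPM in choroid, against 1.08, 2.35 and 1.33 and 3.52, 1.68 and 2.71 CPM in retina (5.63 ± 0.37 and 4.07 ± 0.33). Tek is the gene whose promoter drives the Cre of these animals. Summed over the list, choroid held 2082, 1217 and 1467 CPM and retina 345, 311 and 359 CPM, with 421 the highest choroid input. With at least 50 counts required in all 6 inputs, 9 members were called higher.

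The VEGF receptor genes did not follow. Kdr, which encodes VEGF receptor 2, stood at 169.9, 103 and 93.4 CPM in choroid and 148, 116 and 134 CPM in retina, and the groups overlapped (-0.12 ± 0.23, edgeR adjusted p = 0.657). Flt1, which encodes VEGF receptor 1, stood at 123, 56.6 and 54.2 CPM and 69.9, 62.2 and 90.6 CPM and overlapped as well (0.07 ± 0.33, edgeR adjusted p = 0.848). For both genes the highest choroid sample was 421. Without choroid 421 both were called lower, at -0.45 for Kdr and -0.44 for Flt1 (edgeR adjusted p = 0.00809 and 0.0327). Lyve1 and S1pr1, the other pan-endothelial members that were not called, had log2 fold changes of -0.29 and 0.56. S1pr1 was named after its value was seen, and was called higher without choroid 953 (0.75, edgeR adjusted p = 0.0235). Among 10 tested VEGF and angiopoietin ligands and receptors, 8 were called higher, including the co-receptor gene Nrp1 (257, 143 and 222 CPM against 12.04, 10.7 and 14.9 CPM, 4.05 ± 0.25) and the ligand genes Vegfb (1.92 ± 0.11), Vegfc (3.01 ± 0.17) and Vegfa (1.17, named after its value was seen). The ligand genes Pgf, Angpt1 and Angpt2 were listed for choroid only.

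Both fenestrated and barrier-type endothelial lists stood higher in choroid. Of 11 tested fenestrated and choriocapillaris genes 10 were called higher, with a median of 3.73. Plvap, the diaphragm protein of fenestrae, stood at 388, 237 and 314 CPM in choroid and 18.8, 15.6 and 13.3 CPM in retina (4.30 ± 0.23, edgeR adjusted p = 2.71e-06). Igfbp3, a binding protein of insulin-like growth factors, stood at 227, 181 and 208 CPM against 1.89, 1.20 and 0.939 CPM, a 155-fold ratio (7.28 ± 0.23). Of 26 tested barrier transport and junction genes 21 were also called higher and 4 lower, with a median of 2.63. Slc22a8, an organic anion transporter, stood at 119.9, 166 and 169.8 CPM against 2.03, 2.44 and 3.76 CPM (5.78 ± 0.26). Slco1a4, another organic anion carrier, and Mfsd2a, the lipid transporter of barrier endothelium, were 39.9-fold and 18.03-fold higher. Several of these transporters are also made by RPE, and how much each cell type contributed was not tested. The lower members were Tfrc, the transferrin receptor (69.9, 64.5 and 75.4 CPM against 192, 189.8 and 182 CPM, -1.43 ± 0.09), with Spock2 (-2.93), Tjp1 (-0.80) and Slc7a1 (-0.34), the last 3 named after their values were seen. Slc7a1 was not called without retina 421, retina 960, choroid 953 or choroid 960 (edgeR adjusted p = 0.0667, 0.126, 0.0591 and 0.0518).

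Mural cell genes were mostly higher in choroid. Of 8 tested, 6 were called higher and 1, Vtn, lower, and 9 were listed for choroid only, among them the smooth muscle genes Tagln and Myh11. Pdgfrb, the platelet-derived growth factor receptor of pericytes, stood at 99.5, 60.98 and 65.1 CPM in choroid and 13.5, 11.7 and 12.99 CPM in retina (2.56 ± 0.21, edgeR adjusted p = 1.96e-05). Mcam, an adhesion molecule of endothelial and mural cells, stood at 64.3, 20.7 and 35.5 CPM against 4.19, 3.74 and 4.09 CPM (3.33 ± 0.41). The samples did not overlap, and 421 was the highest choroid input for both.

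Immune genes were nearly all on the choroid side. All 6 tested pan-leukocyte genes, 6 of 7 macrophage and MHC class II genes and all 6 microglial genes were called higher, with medians of 4.84, 4.97 and 3.27. Lyz2, a lysozyme of macrophages and neutrophils whose reads may be shared with Lyz1, stood at 1787, 1206 and 2052 CPM in choroid and 3.52, 2.11 and 3.81 CPM in retina, a 536-fold ratio (9.07 ± 0.37, edgeR adjusted p = 1.21e-06). Cd74 stood at 325, 292 and 567 CPM against 0.676, 1.68 and 1.99 CPM (8.05 ± 0.44), and Csf1r, the growth factor receptor of macrophages, at 314, 272 and 337 CPM against 9.81, 10.9 and 11.8 CPM (4.83 ± 0.14). For Lyz2 and Cd74, 953 was the lowest choroid sample and 960 the highest. The signalling adaptor gene Tyrobp differed by 6.42 ± 0.39, the leukocyte actin-bundling gene Lcp1 by 6.05 ± 0.36 and the lysosomal membrane gene Laptm5 by 5.08 ± 0.41. Tmem119, a microglial marker, stood at 42.1, 17.1 and 24.4 CPM in choroid and 3.31, 2.30 and 1.22 CPM in retina (3.63 ± 0.45). The microglial genes P2ry12 and Siglech were listed for retina only, at 1.57, 2.52 and 1.97 and 1.12, 0.976 and 1.35 CPM. Neither reached 50 counts in every retina input, so both were listed through the retina pull-down alone. Their choroid input levels are not given, so this listing does not show which tissue was higher.

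Antigen presentation and interferon genes were higher in choroid too. All 13 tested MHC class I and antigen processing genes were called higher, with a median of 3.37, and 15 of 16 interferon response genes, with a median of 4.01. B2m, the shared light chain of MHC class I, stood at 755, 627 and 913 CPM in choroid and 20.9, 17.6 and 23.2 CPM in retina (5.22 ± 0.21, edgeR adjusted p = 1.07e-06). H2-K1 and Ifitm3, whose reads may be shared with near-identical relatives, were 10.8-fold and 51.1-fold higher. With at least 50 counts required in all 6 inputs, 8 interferon response genes were called higher.

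Mast cell and red cell genes were few. Of 14 mast cell genes 3 were tested. Gata2, a factor of mast, progenitor and endothelial cells, stood at 19.4, 13.3 and 12.7 CPM in choroid and 0.203, 0.479 and 0.442 CPM in retina (5.26 ± 0.33), while Hdc, which makes histamine, stood at 5.13, 8.005 and 10.8 CPM in choroid and 89.1, 89.7 and 69.8 CPM in retina and was lower in choroid (-3.37 ± 0.26, edgeR adjusted p = 1.59e-05). The mast cell proteases Mcpt4 and Cpa3 were listed for choroid only, at 9.81, 18.7 and 12.7 and 5.66, 6.12 and 3.86 CPM. Globin genes varied by sample: Hba-a1 stood at 206, 577 and 1382 CPM in choroid and 3.79, 13.5 and 15.1 CPM in retina (6.05 ± 0.86, or 5.16 without choroid 960), and Hbb-b1 at 122, 377 and 999 CPM and 1.76, 9.44 and 10.5 CPM (6.09 ± 0.97, or 5.07 without choroid 960). The split of globin reads among near-identical copies is uncertain. For these 2 genes 421 was lowest and 960 highest in both tissues. For a further copy, Beta-s, 953 was the highest retina sample, at 156, 484 and 1201 CPM in choroid and 2.23, 13.99 and 12.5 CPM in retina (5.98 ± 0.96).

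Genes of muscle and of epithelia outside the RPE were listed for the choroid. Of 25 skeletal muscle genes 18 were listed for choroid only, among them Acta1 and Ckm, the muscle actin and creatine kinase genes, at 84.96, 135 and 124 and 54.6, 118 and 93.4 CPM. Of the 4 tested, 2 were called higher and 1 lower. Neb, the nebulin gene, was listed for retina only, at 57.4, 74.8 and 65.6 counts. These lie near the listing minimum, so this listing does not show which tissue was higher. The titin gene Ttn stood at 12.8, 26.4 and 33.4 CPM in choroid and 4.94, 3.26 and 5.97 CPM in retina (2.36 ± 0.39, edgeR adjusted p = 0.000872). The calcium channel gene Cacna1s was lower in choroid, at 5.90, 13.2 and 5.79 CPM against 33.8, 31.1 and 34.04 CPM (-2.02 ± 0.31, edgeR adjusted p = 0.000617). Of 27 ciliary body, lens and corneal epithelial genes 12 were listed for choroid only. The lens crystallin gene Cryaa stood at 8.40, 11.2 and 179, high only in 960 among the choroid inputs, and the corneal keratin gene Krt12 at 126, 36.8 and 29.9, highest in 421. These genes differed between choroid samples, and their part in other differences was not tested.

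Rod genes marked the retina side. All 32 tested rod genes were called lower in choroid, beside 36.9% of all genes, with a median of -4.24, and 5 more were listed for retina only. A fit over all 9 inputs of the series, which needs listing in the brain table too, held 6 of them, all called lower. Gnat1 (chr9:107674474-107679592), which encodes the rod transducin alpha subunit, stood at 75.4, 396 and 978 CPM in choroid and 10131, 10191 and 9795 CPM in retina (-4.38 ± 0.84, edgeR adjusted p = 0.00201). The retina samples were almost level, while among the choroid samples 421 was lowest and 960 highest. Sag, Pde6a and Prph2, which encode arrestin, a phosphodiesterase subunit and a disc rim protein, had log2 fold changes of -4.01, -4.68 and -4.33. Grk1, a photoreceptor receptor kinase gene outside the list, had one of -4.67. Crx, the homeobox gene whose promoter is shown above, stood at 8.03, 50.6 and 87.03 CPM against 1145, 1141 and 1116 CPM (-4.54 ± 0.76). Without choroid 960 the differences were larger, at -5.41 for Gnat1, -4.94 for Sag, -5.55 for Pde6a, -5.41 for Prph2, -5.36 for Grk1 and -5.29 for Crx.

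Rod RNA differed widely between the choroid inputs. As a percent of the retina mean, the median over the 32 rod genes was 0.860% in choroid 421, 4.63% in choroid 953 and 10.4% in choroid 960. Summed over the list the choroid samples held 2659, 6096 and 10871 CPM and the retina samples 88606, 88777 and 85829 CPM. Of the 50 genes whose choroid inputs were more than 8-fold apart, 21 were rod genes, and 27 of the 29 such genes called lower were highest in 960 and lowest in 421. For 6 rod genes choroid 421 and choroid 960 were less than 2-fold apart. Abca4, the retinoid flippase of outer segments, stood at 25.4%, 27.6% and 28.3% of the retina mean (441, 480.4 and 492 CPM against 1801, 1735 and 1681 CPM, -1.88 ± 0.13, edgeR adjusted p = 1.01e-05). Slc24a1, a sodium, calcium and potassium exchanger, stood at 24.7%, 36.3% and 40.6% (-1.56 ± 0.21), and was chosen after its values were seen. Rgs9, which speeds transducin shut-off, stood at 10.1%, 12.2% and 13.5% (-3.07 ± 0.17), and Gucy2e, a photoreceptor guanylate cyclase gene, at 3.83%, 5.12% and 6.52% (-4.28 ± 0.22). Gnb1, a G protein beta subunit made in many cells, stood at 10.9%, 16.1% and 20.2% (-2.67 ± 0.25). Gucy2f, another photoreceptor cyclase gene, stood at 4.76%, 4.19% and 7.49% (-4.18 ± 0.24), lowest in 953. Between choroid 421 and choroid 960, Gnat1 varied 13-fold.

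**Figure D3:**
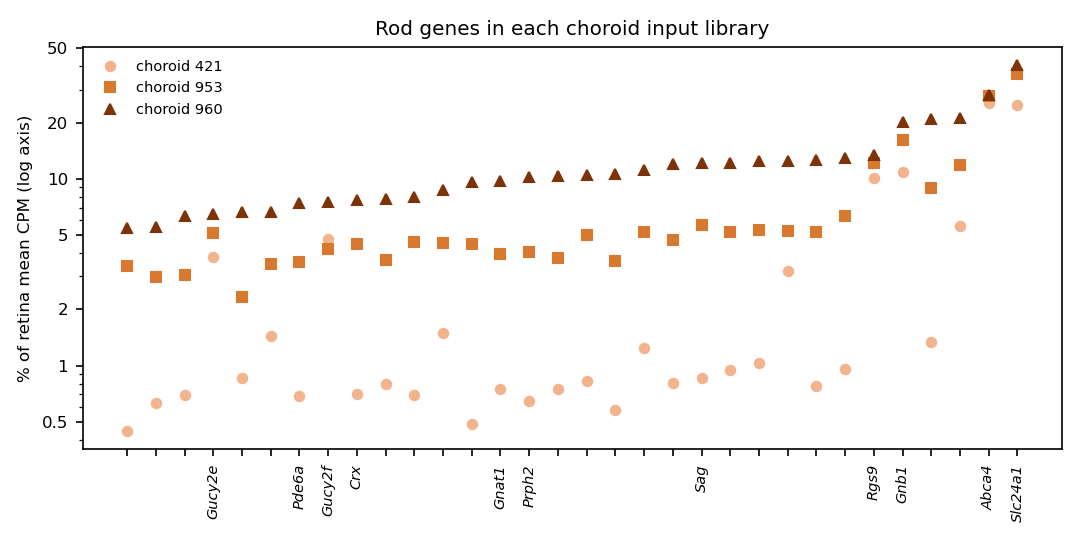
Level of each of the 32 tested rod genes in choroid 421, 953 and 960 as a percent of the retina mean CPM, on a log axis, ordered by the value in 960, with names for the genes described in the text. Most genes lie near 0.860%, 4.63% and 10.4%, while Abca4 lies between 25.4% and 28.3% in all 3 samples.

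Genes of other retinal neurons were mostly lower in choroid too. Of 7 tested cone genes 6 were called lower and none higher, with a median of -2.32, and 8 were listed for retina only, among them the opsin gene Opn1sw at 382, 376 and 379 CPM. The cone transducin gene Gnat2 stood at 24.8, 29.4 and 32.6 CPM in choroid and 159, 145 and 149.8 CPM in retina (-2.39 ± 0.12, edgeR adjusted p = 2.40e-06). The cone phosphodiesterase gene Pde6c differed by -2.67 ± 0.24, and Gnb3, active in cones and ON bipolar cells, by -3.71 ± 0.55. Of 11 tested bipolar genes 8 were called lower and 2 higher, and 12 were listed for retina only. Gpr179, a synaptic receptor of ON bipolar cells, stood at 7.61, 21.9 and 8.32 CPM in choroid and 249, 251 and 276 CPM in retina (-4.39 ± 0.40, or -5.02 without choroid 953). For this gene 953, and not 960, was the highest choroid sample. Prkca, a kinase of rod bipolar cells, differed by -2.83 ± 0.11. The 2 bipolar genes called higher were Otx2 and Trpm1 (0.65), which RPE and melanocytes also express, both named after their values were seen.

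Amacrine and horizontal cell genes were called lower in 5 of 7 tested and higher in 0, with a median of -2.40. Calb2, which encodes a calcium buffer, stood at 7.95, 29.1 and 20.6 CPM in choroid and 334, 329 and 331 CPM in retina (-4.12 ± 0.41, edgeR adjusted p = 6.35e-05). The factor gene Tfap2b differed by -2.71 ± 0.13. Retinal ganglion cell genes were called lower in 10 of 14 and higher in 4, with a median of -2.31. The neurofilament gene Nefl stood at 32.7, 31.9 and 20.5 CPM against 459, 449 and 471 CPM (-4.02 ± 0.20), the growth cone gene Stmn2 at 12.9, 13.4 and 13.3 against 76.6, 76.97 and 72.1 (-2.51 ± 0.10) and the surface protein gene Thy1 at 45.98, 45.8 and 51.8 against 227, 219 and 225 (-2.22 ± 0.09). For Stmn2 and Thy1 the choroid samples were nearly level. The 4 higher members, named after their values were seen, were Rbpms (0.33, not called without retina 421 or retina 960), Opn4 (1.15), Spp1 (3.81) and Penk, a neuropeptide precursor gene, at 435, 493 and 236 CPM in choroid and 8.32, 15.5 and 23.9 CPM in retina (4.60 ± 0.45).

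All 22 tested synaptic and vesicle genes were called lower, with a median of -3.57, and 7 were listed for retina only. Bsn and Pclo, which encode the active zone scaffolds bassoon and piccolo, stood at 5.55, 11.4 and 8.91 and 11.5, 19.2 and 17.5 CPM in choroid, against 275, 265 and 310.4 and 448, 470.3 and 512 CPM in retina (-5.05 ± 0.25 and -4.90 ± 0.21). Cplx1, a vesicle fusion clamp, stood at 7.78, 9.18 and 7.80 CPM against 159.6, 149.8 and 169 CPM (-4.28 ± 0.12, edgeR adjusted p = 6.22e-07). Its retinal relative Cplx4 was listed for retina only, at 620.1, 629.6 and 596 CPM. That is the highest mean CPM of such genes, without correction for gene length. Neurod1, a photoreceptor and amacrine factor, and Impg2, a matrix proteoglycan around photoreceptors, were also high in CPM among genes listed for retina only, at 579.6, 624 and 629.5 and 431, 468 and 479.

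Muller glia genes did not separate the tissues as a block. Of 22 tested, 11 were called higher and 5 lower in choroid, beside 37.5% and 36.9% of all genes, with a median of 0.89. Glul, glutamine synthetase, stood at 2485, 3261 and 2475 CPM in choroid and 2638, 2519 and 2427 CPM in retina and overlapped (0.12 ± 0.17, edgeR adjusted p = 0.564). Apoe, the lipid carrier of glia, macrophages and RPE, stood at 8609, 8822 and 8284 CPM against 796, 778 and 791 CPM, a 10.9-fold ratio (3.44 ± 0.17), while Crym, a thyroid hormone-binding protein, stood at 7.95, 7.06 and 8.47 CPM against 51.4, 47.6 and 52.00 CPM (-2.68 ± 0.12). Among the members called higher were Rlbp1 (2.88), Car14, Clu (2.86) and Vim (2.85), which RPE or stroma can also express. How much each cell type contributed was not tested. Rlbp1, Clu and Vim were named after their values were seen. The count of lower calls was between 3 and 8 when 1 library or 1 sample number was left out, and 8 without choroid 421.

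Astrocyte genes were mostly higher in choroid. Of 10 tested astrocyte genes 6 were called higher, 1 lower and 3 not called, with a median of 3.54. How much each cell type contributed to these levels was not tested. Gja1, the gap junction gene, stood at 909.8, 875 and 532 CPM in choroid and 2.57, 3.74 and 9.28 CPM in retina (7.21 ± 0.55, or 7.92 without retina 960), S100b at 744, 400.0 and 574 against 7.98, 10.5 and 10.6 (5.88 ± 0.28) and the growth factor receptor gene Fgfr3 at 53.7, 39.8 and 39.2 against 0.541, 0.479 and 1.38 (5.77 ± 0.36, or 6.42 without retina 960). These genes were high in all 3 choroid samples. Slc1a2, a glutamate transporter, was the 1 called lower (-3.47), and without choroid 421 the lower calls were 3. Gfap, the astrocyte filament gene, stood at 1083, 70.5 and 62.2 CPM in choroid, mostly in 421, and 13.5, 17.9 and 26.7 CPM in retina (4.39 ± 1.18, or 1.75 without choroid 421). Slc1a2 and Gfap were named after their values were seen.

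Myelin genes were higher in choroid, most of all in sample 421. All 4 tested were called higher, with a median of 5.54, and 4 were listed for choroid only. The choroid sums were 6317, 362 and 683 CPM and the retina sums 73.8, 78.9 and 76.97 CPM. Mbp, myelin basic protein, stood at 3418, 109.6 and 177 CPM in choroid and 45.6, 48.5 and 46.1 CPM in retina (4.72 ± 1.32, edgeR adjusted p = 0.0127), and without choroid 421 the difference was 1.60 (edgeR adjusted p = 8.87e-05). Cnp, a myelin enzyme, differed by 2.95 ± 0.87 (edgeR adjusted p = 0.0165), by 1.08 without choroid 421, and was not called without any 1 of the retina samples (adjusted p from 0.0513 to 0.0531). Mal, a lipid raft protein of myelin and epithelia, was high in all 3 choroid samples, at 407, 139.5 and 351 CPM against 3.25, 4.79 and 2.76 CPM (6.36 ± 0.48). DESeq2 called 2 of these 4 genes. The neuronal motor gene Kif5a, chosen after its values were seen, had the same shape, at 4024, 191 and 162 CPM in choroid and 272, 288 and 333 CPM in retina (2.29 ± 1.16, edgeR adjusted p = 0.109), and was called lower without choroid 421 (-0.78, edgeR adjusted p = 0.000522).

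**Figure D4:**
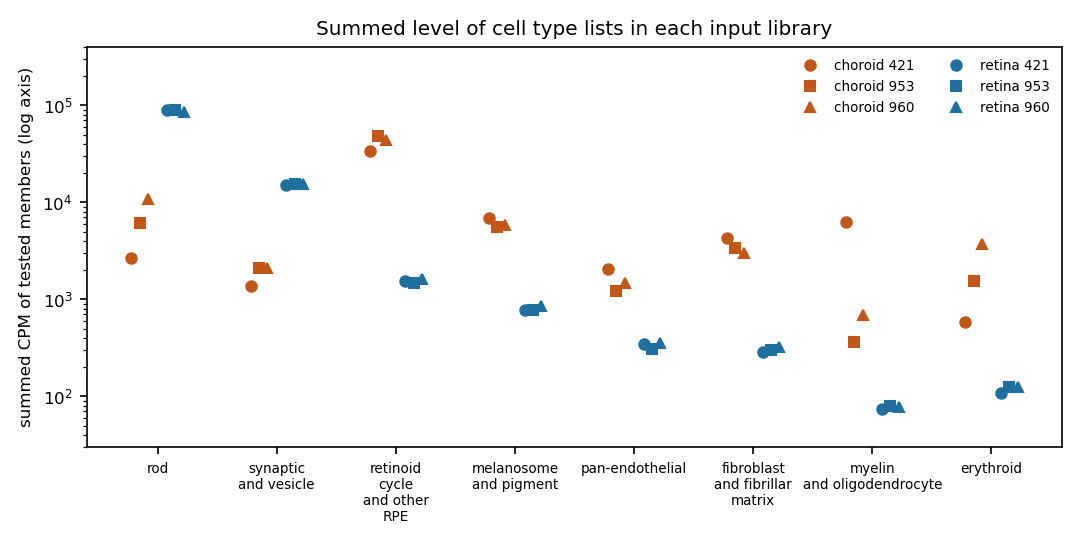
Summed CPM of the tested members of 8 gene lists in each input library, on a log axis (choroid orange, retina blue, symbols for samples 421, 953 and 960). The retina samples are close together in each list, while the choroid samples spread from 2659 to 10871 CPM for rod genes and from 362 to 6317 CPM for myelin genes.

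Glucose metabolism separated the tissues by enzyme and transporter. The list of glycolytic enzymes also holds pyruvate dehydrogenase kinases and lactate dehydrogenase subunits. Of its 19 tested members 15 were called lower in choroid and 3 higher, with a median of -0.84. Hk2, the hexokinase of highly glycolytic cells, stood at 28.4, 49.4 and 64.2 CPM in choroid and 682, 774 and 702 CPM in retina, 15.2-fold lower (-3.92 ± 0.30, edgeR adjusted p = 1.47e-05). Hk1, the general hexokinase, stood at 246, 242 and 286 CPM against 1103, 1131 and 1193 CPM (-2.15 ± 0.13), the enolase gene Eno2 at 55.03, 78.6 and 80.1 against 574, 607 and 587 (-3.05 ± 0.17), and the phosphofructokinase gene Pfkp differed by -1.50 ± 0.11. The choroid samples of Hk2 and Eno2 were lowest in 421, as for rod genes, while those of Hk1 and Pfkp were not ordered in this way. The part of retinal RNA in these choroid values was not tested. The 3 genes called higher were the pyruvate dehydrogenase kinases Pdk1 (0.62) and Pdk2, at 209.8, 230.5 and 207 CPM against 65.5, 63.4 and 65.3 CPM (1.74 ± 0.09), and Ldhb, the lactate dehydrogenase subunit typical of lactate-using tissue, at 578, 701 and 728 CPM against 197, 179.6 and 214 CPM (1.77 ± 0.14, edgeR adjusted p = 1.79e-05). The other subunit gene, Ldha, was lower (-1.95). Pdk1, Ldha and Ldhb were named after their values were seen.

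Transporters of glucose and lactate differed by isoform. Of 8 tested, 5 were called higher and 3 lower, beside 37.5% and 36.9% of all genes, which is near that share for the lower ones. Slc2a1, the glucose transporter GLUT1 of RPE and barrier endothelium, stood at 1169, 1247 and 1218 CPM in choroid and 227, 224 and 223 CPM in retina, a 5.40-fold ratio (2.43 ± 0.12, edgeR adjusted p = 2.06e-06), and Slc2a3, the neuronal GLUT3, at 11.96, 7.65 and 8.76 CPM against 93.00, 96.1 and 103 CPM, 10.2-fold lower (-3.35 ± 0.17). Slc16a8, the lactate transporter MCT3 of the RPE, stood at 724, 1129 and 1359 CPM against 6.22, 5.13 and 9.89 CPM (7.24 ± 0.39). Slc16a3, which encodes MCT4, stood at 9.23, 8.24 and 12.3 CPM against 67.8, 69.3 and 71.5 CPM and was lower (-2.80 ± 0.16), as was the related Slc16a6 (-2.14 ± 0.17). In none of these genes did the tissues overlap, as in 79.4% of all genes.

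**Figure D5:**
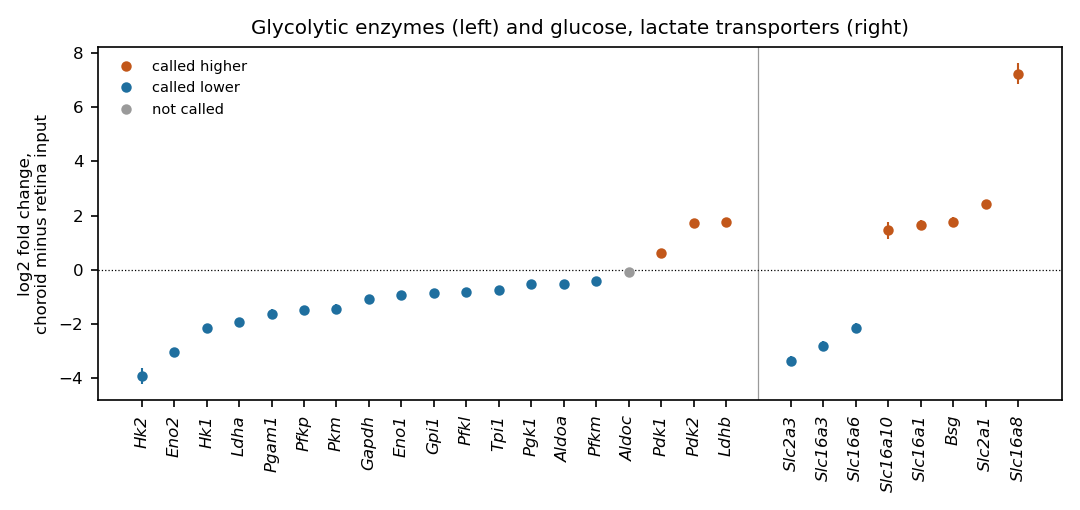
Log2 fold changes ± SE, choroid minus retina input, of the 19 tested genes of the glycolytic enzyme list (left) and the 8 tested glucose and lactate transporter genes (right), each sorted by size. The list on the left includes pyruvate dehydrogenase kinases and lactate dehydrogenase subunits. Hk2 lies lowest at -3.92 and Ldhb highest at 1.77 among the enzymes, and the transporters run from -3.35 for Slc2a3 to 7.24 for Slc16a8.

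Nuclear-encoded respiratory chain subunits were moderately higher. Of 42 tested, 31 were called higher and 1 lower, with a median of 0.79, and in the fit of all 9 inputs 16 were called higher and none (0) lower. Sdhd, a membrane anchor of succinate dehydrogenase, stood at 137, 173 and 181 CPM in choroid and 50.4, 50.2 and 46.3 CPM in retina (1.74 ± 0.13, edgeR adjusted p = 1.14e-05), and the cytochrome oxidase gene Cox4i1 at 547, 620.4 and 717 against 279.7, 285 and 252 (1.21 ± 0.14). For both genes 421 was the lowest choroid sample and 960 the highest. The 1 member called lower was Ndufa10 of complex I (-0.34 ± 0.10, edgeR adjusted p = 0.0172), chosen after its values were seen. It was not called without retina 421 or without retina 953 (edgeR adjusted p = 0.0628 and 0.0738).

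All 51 tested cytosolic ribosomal protein genes were called higher in choroid, with log2 fold changes from 0.70 to 2.26 and a median of 1.29. Their summed level was 21843, 21896 and 31981 CPM in choroid and 10729, 10869 and 9940.5 CPM in retina, with 960 the highest choroid sample. Rpl10 stood at 497, 406 and 623 CPM against 104, 106 and 108 CPM (2.26 ± 0.17) and Rps4x at 589, 576 and 842 against 221, 226 and 212 (1.61 ± 0.17). Reads of these genes can be shared with processed pseudogenes, so single values are uncertain. In the fit of all 9 inputs 44 were called, all higher. Rpl10a, the ribosomal protein that carries the tag of the NuTRAP allele, differed by 0.74, and the deposited counts cannot tell its transgene from the endogenous gene. Of 16 tested housekeeping genes 8 were called higher and 6 lower, beside 37.5% and 36.9% of all genes, which is near that share for the lower ones.

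Lysosomal and phagocytic genes were a broad choroid group. Of 24 tested, 22 were called higher and 2 lower, with a median of 2.64. Gpnmb, a glycoprotein of melanosomes and phagocytes, stood at 1672, 1167 and 1312 CPM in choroid and 3.38, 5.75 and 8.18 CPM in retina, a 238-fold ratio (7.90 ± 0.39, edgeR adjusted p = 2.11e-06). The vesicle tetraspanin gene Cd63 stood at 959.5, 1006 and 1144 CPM against 55.1, 54.4 and 63.9 CPM (4.16 ± 0.15). Npc2, a soluble cholesterol carrier, differed by 4.03 ± 0.16 and the lysosomal lipase gene Lipa by 3.63 ± 0.10. Npc1, the membrane partner of NPC2, was called lower, at 89.6, 46.3 and 60.2 CPM against 137, 134 and 117 CPM (-0.98 ± 0.22, edgeR adjusted p = 0.00485), as was the channel gene Mcoln1 (-0.32), both named after their values were seen. Mcoln1 was not called without retina 421 or without retina 953 (edgeR adjusted p = 0.0728 and 0.0584).

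Iron transport and storage genes moved in both directions. Of 14 tested, 8 were called higher and 2 lower, beside 37.5% and 36.9% of all genes, and 4 were not called. Trf, which encodes transferrin, stood at 9077, 13748 and 11282 CPM in choroid and 123, 149 and 213 CPM in retina, a 70.3-fold ratio (6.14 ± 0.33, edgeR adjusted p = 3.06e-06). The ferritin genes Fth1 and Ftl1, whose reads can be shared with pseudogenes, stood 8.22-fold and 14.8-fold higher, and Heph, the ferroxidase hephaestin, 7.65-fold higher (72.4, 72.04 and 63.3 CPM against 8.93, 8.96 and 9.23 CPM, 2.94 ± 0.11). Cp, the ferroxidase ceruloplasmin, was not called, at 231, 255 and 132 CPM against 136, 133 and 149.9 CPM, and overlapped (0.56 ± 0.23, edgeR adjusted p = 0.0561). The receptor gene Tfrc, lower in choroid as given above, and the mitochondrial iron carrier gene Slc25a37 (-0.68, named after its values were seen) went the other way.

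Signalling genes of the Wnt and BMP pathways were mostly higher in choroid, inhibitors included. Of 18 tested Wnt ligands, receptors and modulators 14 were called higher and 2 lower, beside 37.5% and 36.9% of all genes. Their median was 2.12. Sfrp1, a secreted Wnt antagonist, stood at 315, 317 and 248 CPM in choroid and 3.38, 3.26 and 4.97 CPM in retina (6.24 ± 0.21, edgeR adjusted p = 7.85e-07), and Dkk2, a modulator of the co-receptors, at 96.7, 56.98 and 87.8 against 0.879, 0.767 and 0.829 (6.60 ± 0.27). The lower pair was Frzb and the receptor gene Fzd5 (-1.66), the latter named after its value was seen. Of 18 tested BMP and TGF-beta genes 15 were called higher and none lower, with a median of 4.10. The ligand gene Tgfb1 stood at 60.5, 33.8 and 51.2 CPM against 1.01, 1.01 and 1.16 CPM (5.51 ± 0.28), and Id3, a transcriptional target of BMP signals, at 242, 293 and 281 against 8.18, 8.003 and 7.74 (5.09 ± 0.12). Bmp4 was listed for choroid only at 161, 245 and 238 CPM.

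Genes of the RPE list were also counted in the retina inputs, at a low level. As a percent of the choroid mean, the median over the 28 tested RPE genes was 3.41%, 3.26% and 4.67% in retina 421, 953 and 960. Retina 960 was the highest of them for Rpe65 (7.64, 7.38 and 11.6 CPM).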

How the data were processed

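The 6 input libraries were grouped by tissue from the sample titles. The authors deposited 1 table per tissue, whose raw columns hold expected counts, that is estimated counts per gene with fractions (72.0% of the choroid and 91.5% of the retina values differ from a whole number by more than 0.001). They were rounded here, and the tables' normalized columns were not used. Per the file headers, listing needs 50 raw counts or more in every library of the input or of the positive fraction, which held for all listed genes. The submitters' processing notes name DESeq and mm10. The aligner and the counter are not stated there. Coordinates of genes are those of the tables. The tables list 11718 genes for choroid and 12369 for retina. They were joined on gene ID, and joined genes held 95.7% to 96.6% of listed counts.

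Groups were compared with edgeR 4.0.16 in R 4.3.3 (quasi-likelihood test with 4 residual degrees of freedom, TMM scaling, Benjamini-Hochberg over 10703 genes after filterByExpr took out 1). The steps were also run on simulated counts with few changed genes, balanced in direction, and the same spread in both tissues. That setting differs from these data, so it cannot show how the test behaves with most genes changed or with unequal spread. Alternatives were DESeq2 1.42.0, limma 3.58.1 with voom and 1 weight per tissue, other scalings and filters, a replicate block, all 9 inputs and leaving out libraries. Levels of genes listed for 1 tissue are CPM over that table's total. The 50 gene lists (1107 memberships, 1007 matched by symbol, 6 by RefSeq gene ID, 94 in no table) and the members were chosen with earlier results of these data known, so list counts are descriptions. Genes named were the 4 markers, the 12 furthest in each direction whose mean reached 10 CPM and whose groups did not overlap, 5 called and up to 2 uncalled members per list, the 8 highest genes and all list members of each table alone, and 6 genes more than 8-fold apart among choroid inputs. Some genes that this rule takes in are not reported here. Others are said to be named after their values were seen. Promoters were read from RefSeq, GRCm38.p6.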

Additional observations from a re-analysis of the deposited data

How the results depend on the processing

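Over all genes, the counts of higher and lower calls and of those at least 8-fold apart stayed within 1.5 times in all alternatives but 1: with at least 50 counts in all 6 inputs, 423 genes in place of 656 were higher by at least 8-fold. With 1 library or 1 sample number left out, the counts ranged from 3349 to 4177 higher and 3199 to 4306 lower. In every alternative no (0) call changed direction, and 81.8% to 100% of the calls that could be tested were shared. Scaling by RLE or by library totals moved the median of all genes to 0.006 and -0.028. The labels do not say whether a replicate number marks the same animal in both tissues. Correlations of deviations were -0.01, 0.05 and -0.15 for equal numbers and -0.13 to 0.13 for unequal ones. With 3 samples per tissue they cannot settle the pairing. The replicate block gave 3810 higher and 3826 lower, 94.9% of calls shared. Voom gave choroid inputs a weight of 0.419 and retina inputs 2.39.

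Of the 98 counts by gene list and direction, 33 moved by more than 1.5 times in at least 1 alternative, 75 of 1764 values in all. The fit of all 9 inputs and the minimum of 50 counts test fewer genes. Signs changed for genes near 0 or carried by 1 sample. Flt1 (0.07 as reported) was -0.007 with voom and -0.019 with the replicate block, and ranged from -0.478 (without sample 421) to 0.452 (without sample 960) with libraries left out. On leaving out libraries Glul (0.12) ranged from -0.03 to 0.199, Kdr (-0.12) from -0.452 to 0.051 and Kif5a (2.29) from -0.835 to 2.91. Why voom and the block moved Flt1 was not tested. Depth limits genes near 1 CPM in retina, whose fold changes rest on few counts.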

Other observations

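Circadian clock genes were mixed in direction. Of 17 tested, 3 were called higher and 9 lower in choroid, with a median log2 fold change of -0.28, beside 37.5% and 36.9% of all genes. The share called in either direction was near that of all genes (74.4%). Arntl, which encodes the activator BMAL1, stood at 16.1, 15.8 and 28.7 CPM in choroid and 107, 120.2 and 114 CPM in retina (-2.49 ± 0.23, edgeR adjusted p = 4.48e-05), with no overlap. The repressor genes Cry2 (-1.15 ± 0.08) and Per3 (-1.42 ± 0.15) were lower too, while Bhlhe40 (1.33 ± 0.10) was higher. The hour at which tissue was collected is not stated.

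Among 20 tested immediate early genes 12 were called higher and 4 lower in choroid, beside 37.5% and 36.9% of all genes. The lower calls were 2 without retina 421, retina 953 or choroid 953. The factor genes Klf2 and Klf4, both active in endothelium, stood at 101, 69.9 and 95.9 and 95.9, 67.6 and 114 CPM in choroid and 1.76, 2.59 and 2.27 and 1.69, 1.53 and 0.995 CPM in retina (5.32 ± 0.22 and 6.04 ± 0.28). Of 12 tested homeobox and other regional factors of the eye 7 were called higher and 4 lower, the latter near the share over all genes. Foxc1, a factor of periocular mesenchyme, stood at 50.2, 38.3 and 53.2 CPM in choroid and 0.406, 0.671 and 0.497 CPM in retina (6.44 ± 0.24, edgeR adjusted p = 9.10e-07), and Zic1 at 85.7, 78.3 and 36.2 against 3.92, 5.37 and 6.96 (3.61 ± 0.37).

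The long non-coding RNA gene Xist was detected in all 6 libraries, at 468, 349 and 277 CPM in choroid and 1401, 1154 and 1211 CPM in retina (-1.78 ± 0.21, edgeR adjusted p = 0.000165). The choroid and retina samples did not overlap.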
